A study of Mus musculus with 4 samples.

Results

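Mitochondrial ribosomal protein genes were followed across regulatory T cells of visceral fat and of spleen. The members were all gene symbols of the form Mrpl or Mrps with a number and at most 1 letter from a to d that had at least 5 reads in each library. Of 23284 gene symbols in the count tables, 76 had such a symbol, and all 76 passed the read threshold. There were 47 Mrpl and 29 Mrps symbols. The rule itself uses symbols and a read minimum, not a difference between groups.

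The mitochondrial ribosome translates the few proteins encoded by mitochondrial DNA, which are core subunits of the respiratory chain and of ATP synthase. Its RNAs come from the mitochondrial genome, whereas all of its proteins are encoded in the nucleus, made in the cytosol and imported. Some of these proteins have counterparts in bacterial ribosomes and others exist only in mitochondria, and T cells depend on mitochondrial translation for respiratory chain assembly during growth and activation.

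The libraries were made from regulatory T cells (Treg cells, T cells that restrain immune responses and carry the transcription factor FOXP3) sorted from C57BL/6 mice aged 12 to 13 months. Each of 4 groups had 1 library: spleen of WT and of 2KR mice, and eWAT of WT and of 2KR mice. WT mice are wild type, 2KR stands for the genotype PPARg-2KR, a form of the nuclear receptor PPARG with lysines replaced by arginine, and eWAT is epididymal white adipose tissue, a visceral fat depot. All groups share the strain, the age range and the sort as Treg cells, and spleen was the control tissue. The labels do not say how the PPARg-2KR allele was made, which cells carry it, how the cells were gated or whether animals were pooled. Gene counts cannot show the changed lysines and therefore did not check the genotype labels.

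Library totals ranged from 8315569 to 15993889 reads. Foxp3 stood between 804 and 1409 CPM (CPM being reads scaled to library size with trimmed mean of M-values, TMM, factors) in all 4 libraries, and the 6 Treg markers listed summed to between 4602 and 5933 CPM, with Ctla4 higher and Cd3e and Cd4 lower in eWAT. Since the labels name no separate animals or cultures within a group, the p-values for tissue rest on libraries of different genotype as replicates, and the genotype difference is part of their spread.

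Transcript levels were compared between genes per length, as FPKM (fragments relative to transcript length and to library depth). The median member stood at 66.7 FPKM (WT) and 60.3 FPKM (2KR) in spleen, against 37.9 (WT) and 35.3 (2KR) in eWAT. The 6 members with the highest mean FPKM over the libraries were Mrpl33 at 205, Mrps21 at 192, Mrpl52 at 176, Mrps6 at 129.9, Mrpl13 at 118 and Mrpl20 at 112. They encode small proteins of both subunits. The 4 lowest were Mrps25 at 5.06, Mrpl19 at 8.33, Mrpl17 at 9.39 and Mrpl11 at 9.65 FPKM. Proteins that are assembled into the same particle thus had transcript levels that differed by more than an order of magnitude in FPKM. The ratio of counted reads to FPKM, allowing for transcript length, was set relative to the median member. Among the 6 highest it ran from 0.36 (Mrps21) to 0.91 (Mrpl13), and among the 4 lowest from 0.87 (Mrps25) to 1.21 (Mrpl17). The order by FPKM and the size of the span are therefore uncertain. Across the 74 members that reached 5 CPM in a library, the tissue difference described below had a Spearman correlation of 0.012 with the mean FPKM, as a description over genes that share the same libraries.

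**Figure D1:**
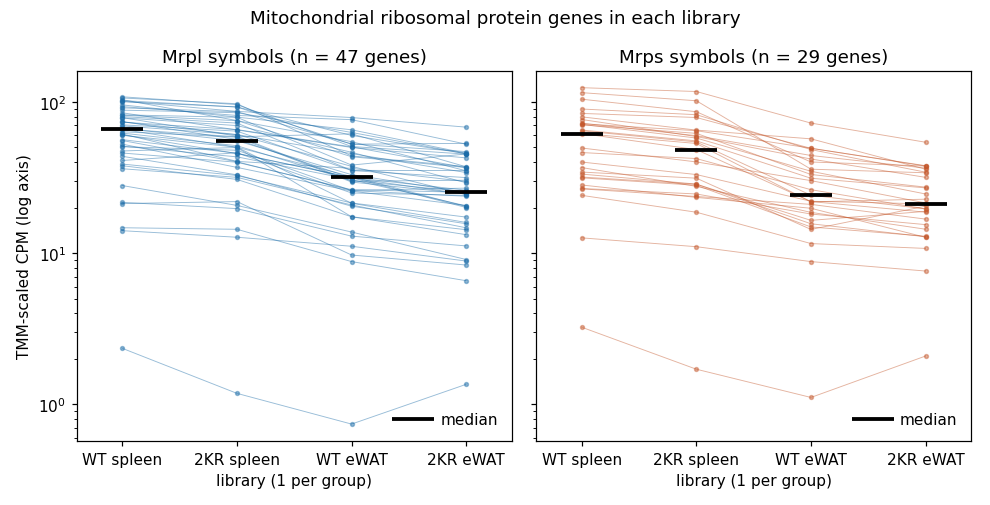
Level of each member in each library, as TMM-scaled CPM on a log axis, with Mrpl symbols on the left and Mrps symbols on the right. Each line is 1 gene and each black bar the median of the library; the medians are lower in the eWAT libraries than in the spleen libraries, and the low line in each panel is Mrpl23 (left) or Mrps36 (right).

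Upstream sequences are shown for members with a marked or an unusual pattern and for Mrps18b, with the motifs found in them. RefSeq start sites of the mouse build GRCm38.p6 gave windows from 250 bases before to 50 bases after the start for 67 of the 76 members. The deposited files use the build mm9, so only symbols were matched between them. The sequences below are the inner 260 bases of that window, on the strand of the gene, with whole matches to the searched motifs in capitals. Mrpl52 is shown for its tissue difference, which was among the strongest (chr14:54426679-54426938, plus strand), and its capitals are ETS cores on the other strand. Mrps18b, 1 of 3 related Mrps18 genes, follows at chr17:35916411-35916670 on the minus strand, with an NRF1 core and a GC box, and its ETS core lies in the part of the window not printed. Mrpl33 had the weakest tissue difference (chr5:31613721-31613980, plus strand) and has an NRF1 core and an ETS core near the start. Mrps22 had the highest genotype ratio in eWAT (chr9:98601650-98601909, minus strand) and has a GC box and an ETS core.
Mrpl52: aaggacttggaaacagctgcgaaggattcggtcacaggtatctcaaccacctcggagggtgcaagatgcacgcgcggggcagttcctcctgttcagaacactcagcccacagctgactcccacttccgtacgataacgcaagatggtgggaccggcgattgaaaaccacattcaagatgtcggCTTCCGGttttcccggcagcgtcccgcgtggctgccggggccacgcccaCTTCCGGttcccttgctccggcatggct
Mrps18b: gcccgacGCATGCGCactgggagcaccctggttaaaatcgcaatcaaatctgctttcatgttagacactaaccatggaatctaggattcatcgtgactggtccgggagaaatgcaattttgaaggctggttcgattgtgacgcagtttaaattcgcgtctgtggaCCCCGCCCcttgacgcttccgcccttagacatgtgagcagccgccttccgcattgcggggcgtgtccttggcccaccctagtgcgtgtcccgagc
Mrpl33: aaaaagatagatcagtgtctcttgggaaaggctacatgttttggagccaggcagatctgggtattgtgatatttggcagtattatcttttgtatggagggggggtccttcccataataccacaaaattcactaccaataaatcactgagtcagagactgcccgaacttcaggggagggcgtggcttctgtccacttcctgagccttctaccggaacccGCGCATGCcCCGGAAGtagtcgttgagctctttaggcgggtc
Mrps22: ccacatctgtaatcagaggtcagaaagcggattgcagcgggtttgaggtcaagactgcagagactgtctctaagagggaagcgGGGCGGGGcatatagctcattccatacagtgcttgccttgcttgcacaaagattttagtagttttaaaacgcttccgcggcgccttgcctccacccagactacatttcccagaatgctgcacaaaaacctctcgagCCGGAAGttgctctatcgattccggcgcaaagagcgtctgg

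The motifs were searched as exact letters on both strands, and none of the 4 strings contains another. CCGGAAG, the core bound by ETS factors such as GABPA (also called NRF2), was present in 24 of the 67 members (35.8%) and in 12.9% of 17492 coding genes with windows of the same length. ATGGCGGC, a YY1 core, was present in 12 members (17.9%) and in 3.50% of coding genes. GCATGCGC, the core of nuclear respiratory factor NRF1, was present in 8 members (11.9%) and in 3.94% of coding genes. GGGCGGGG, a GC box of Sp and KLF factors, was present in 16 members (23.9%) and in 26.2% of coding genes. A gene was counted if any of its windows held the motif, so genes with several windows had more chances of a match. Over all 32851 windows the shares were 8.86% (ETS core), 2.24% (YY1 core), 2.71% (NRF1 core) and 17.6% (GC box). At least 1 of these motifs was present in 45 of the 67 members. A match describes the letters of the window, and a window without a match says nothing of the factor.

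Many members lie back to back with another gene. A coding gene on the opposite strand started within 500 bases upstream for 20 of the 67 members (29.9%) and for 1317 of 17492 coding genes (7.53%). Mrps11 and Mrpl46, a small and a large subunit gene, are such a pair of members, with starts 42 bases apart and 141 bases shared between their windows. In the mm9 coordinates of the files, Mrpl46 runs from 85920227 to 85927975 and Mrps11 from 85928017 to 85937874 on chromosome 7. The stretch between and around both starts (chr7:78783075-78783145, strand of Mrps11) is 71 bases long and holds none of the 4 motifs. Mrps11 has a YY1 core in the part of its window not printed, and the window of Mrpl46 has none of the 4.
Mrps11 and Mrpl46: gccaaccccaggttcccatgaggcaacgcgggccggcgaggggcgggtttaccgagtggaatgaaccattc

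Transcripts of mitochondrial ribosomal proteins made up a lower share of the RNA of fat Treg cells than of spleen Treg cells. In the comparison of the 2 eWAT with the 2 spleen libraries, which asked how Treg cells of fat differ from those of spleen, 67 of 76 members were lower in eWAT, 0 were higher and 9 did not pass the test. The background was 23.2% of 16488 tested genes lower and 33.7% higher in edgeR's quasi-likelihood test with Benjamini-Hochberg adjustment at 0.05. Among the 7689 tested genes with a mean of at least 20 CPM, 42.8% were lower. All 76 fold changes were below 0 under each of the 11 settings run, with a median log2 fold change of −0.93 (52.5% of the spleen level) against 0.11 over all genes tested and −0.41 over those at 20 CPM or more. Both eWAT libraries were below both spleen libraries in 73 members, beside 37.5% of all genes tested. The exceptions were Mrpl33, Mrpl23 and Mrps36.

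In bulk samples, fewer cells of a type and less RNA per cell cannot be told apart. Markers of other cell types moved with the tissue. All 8 macrophage and monocyte markers found were higher in eWAT, and their summed level was 69.9 to 83.6 CPM in spleen and 1334 to 1716 CPM in eWAT. All 6 dendritic cell markers were higher (9.12 to 16.1 against 336 to 524 CPM), as were all 7 fibroblast and mesothelium markers (2.49 to 5.09 against 199 to 468 CPM). Of 5 endothelial markers 4 were higher and Pecam1 was lower, with sums of 173 to 192 CPM in spleen and 104 to 179 CPM in eWAT. Of 5 B cell markers 3 were higher and Cd79b was lower (76.8 to 88.6 against 81.1 to 139 CPM), and both tested adipocyte markers were higher (1.44 to 2.83 against 11.3 to 19.5 CPM over the 5 listed). Lum was at 0 reads in both spleen libraries, Fcgr1 and Cldn5 in 2KR spleen and Adipoq in WT eWAT. The summed level of the members was 3986 to 4637 CPM in spleen and 2018 to 2506 CPM in eWAT. The part of other cells in this difference was not tested.

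Leaving out 1 library at a time left a lone library in a tissue, so only fold changes are given for the members as a set. Their median log2 fold change was −0.89 without WT spleen and −1.09 without 2KR spleen. It was −1.20 without WT eWAT and −0.86 without 2KR eWAT. The medians of all genes under these fits were not computed. Treated as single pairs of libraries, the tissue ratio was at −0.5 or lower for 67 of 74 members in WT mice, beside 32.3% of 12364 genes that reached 5 CPM in a library, with a median of −0.90. In 2KR mice it was at −0.5 or lower for 71 of 74 members, beside 37.7% of genes, with a median of −1.01. The WT and 2KR ratios share no library, and over the 74 members their Spearman correlation was 0.59, given as a description. All 74 ratios were below 0 in each genotype, beside 7113 (WT) and 7431 (2KR) of 12364 genes at 5 CPM. Among the 7689 tested genes at 20 CPM or more, 5437 (WT) and 6005 (2KR) were below 0. The 95% exact interval for counting error lay below 0 for 72 members in WT and for 74 in 2KR. The share of all genes with such an interval was not computed, so these interval counts are no result about the members.

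**Figure D2:**
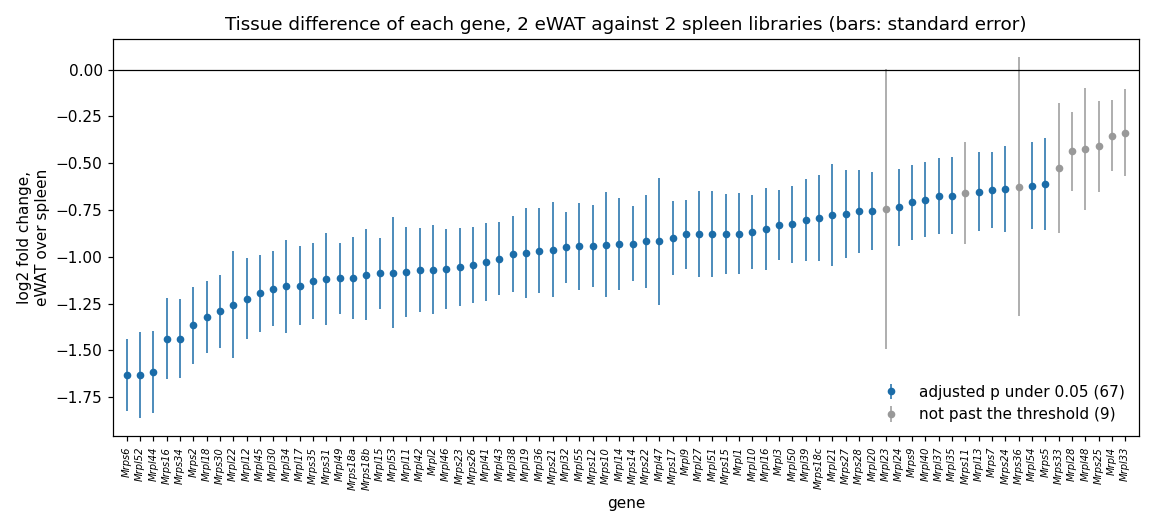
Tissue difference of all 76 members, ordered by edgeR log2 fold change of eWAT over spleen, with bars for the standard error. Blue points passed the threshold (67) and grey points did not (9), and all points lie below 0.

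The difference ran through both subunits. Of the Mrpl symbols 42 of 47 were lower, with a median log2 fold change of −0.93, and of the Mrps symbols 25 of 29, also with a median of −0.93. By protein, 26 of 30 large subunit proteins shared with bacteria were lower (median −0.90) and 18 of 19 large subunit proteins found only in mitochondria (median −1.03). In the small subunit the counts were 15 of 16 for shared proteins (median −0.89) and 8 of 10 for proteins found only in mitochondria (median −1.05). Mrps30 and Mrps18a are counted with the large subunit, where their proteins sit despite the symbols, and Mrps36 is left out of the classes because its protein is now held to belong to the 2-oxoglutarate dehydrogenase complex. The spread of fold changes over the 74 members at 5 CPM was 0.28 (SD, over genes), and the median standard error of a single member was 0.22. The standard error includes the genotype difference between libraries, so these values do not show whether members differ from each other.

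The strongest tissue differences were in 8 genes of both subunits. Mrps6 (chromosome 16, 92058581 to 92112472 in mm9), whose protein has a bacterial counterpart in the small subunit, stood at 115 CPM (WT) and 102 CPM (2KR) in spleen, against 35.9 (WT) and 34.0 (2KR) in eWAT. Its eWAT level was 32.2% of the spleen level (log2 fold change −1.63, SE 0.19, edgeR adjusted p = 1.94e-05). Mrpl52 (chromosome 14, 55045746 to 55048587 in mm9), a large subunit protein found only in mitochondria, stood at 65.8 CPM (WT) and 50.1 CPM (2KR) in spleen, against 21.4 (WT) and 15.9 (2KR) in eWAT (log2 fold change −1.63, SE 0.23, edgeR adjusted p = 0.000101). In both genes every eWAT value lay below every spleen value, as in 73 of the 76 members. Mrpl44 (chromosome 1, 79772593 to 79778020 in mm9), a large subunit protein with a fold like that of ribonuclease III, stood at 47.4 and 49.9 CPM in spleen and at 17.4 and 14.3 CPM in eWAT, WT before 2KR (log2 fold change −1.62, SE 0.22, edgeR adjusted p = 6.71e-05). It was 1 of only 3 members at 5 CPM whose spleen level was higher in 2KR than in WT.

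Mrps16, Mrps34, Mrps2, Mrpl18 and Mrps30 followed. Mrps16 and Mrps2, small subunit proteins shared with bacteria, had log2 fold changes of −1.44 (SE 0.22, edgeR adjusted p = 0.000181) and −1.37 (SE 0.20, edgeR adjusted p = 0.000165). Mrps16 stood at 61.7 and 48.4 CPM in spleen, WT before 2KR, and at 21.9 and 18.7 CPM in eWAT. Mrps2 stood at 61.8 and 53.1 CPM in spleen and at 21.8 and 22.7 CPM in eWAT, so that it did not differ between the eWAT libraries by more than 1 CPM. Mrps34, a small subunit protein found only in mitochondria, stood at 64.3 and 54.3 CPM in spleen and at 24.1 and 19.6 CPM in eWAT (log2 fold change −1.44, SE 0.21, edgeR adjusted p = 0.000148). Mrpl18, which in the bacterial ribosome is the partner of a small ribosomal RNA, stood at 106 and 97.2 CPM in spleen and at 43.9 and 37.3 CPM in eWAT (log2 fold change −1.32, SE 0.19). Mrps30 stood at 104 and 86.1 CPM in spleen and at 40.0 and 37.6 CPM in eWAT (log2 fold change −1.29, SE 0.19). In all 5 genes the tissues did not overlap, as in 73 of the 76 members and 37.5% of all genes tested. The genes were named for their large tissue difference, so this adds nothing to it.

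Mrpl12 (chromosome 11, 120345983 to 120350068 in mm9), the protein of the flexible stalk that recruits translation factors, stood at 74.2 CPM (WT) and 56.4 CPM (2KR) in spleen, against 31.4 (WT) and 24.5 (2KR) in eWAT. It was lower in eWAT by a log2 fold change of −1.22 (SE 0.22, edgeR adjusted p = 0.00060). Mrps18b (chromosome 17, 36047330 to 36053314 in mm9), whose upstream sequence is printed above, stood at 31.4 CPM (WT) and 28.1 CPM (2KR) in spleen, against 14.9 (WT) and 12.9 (2KR) in eWAT (log2 fold change −1.10, SE 0.24, edgeR adjusted p = 0.00245). Both genes were ordered alike, with WT spleen highest and 2KR eWAT lowest. The Mrps18 genes descend from a single bacterial gene, and their proteins occupy different places in the particle. Mrps18a of the large subunit had a log2 fold change of −1.11 (SE 0.22, edgeR adjusted p = 0.00123) and Mrps18c of the small subunit −0.79 (SE 0.23, edgeR adjusted p = 0.00971). All 3 paralogs were thus lower in eWAT.

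**Figure D3:**
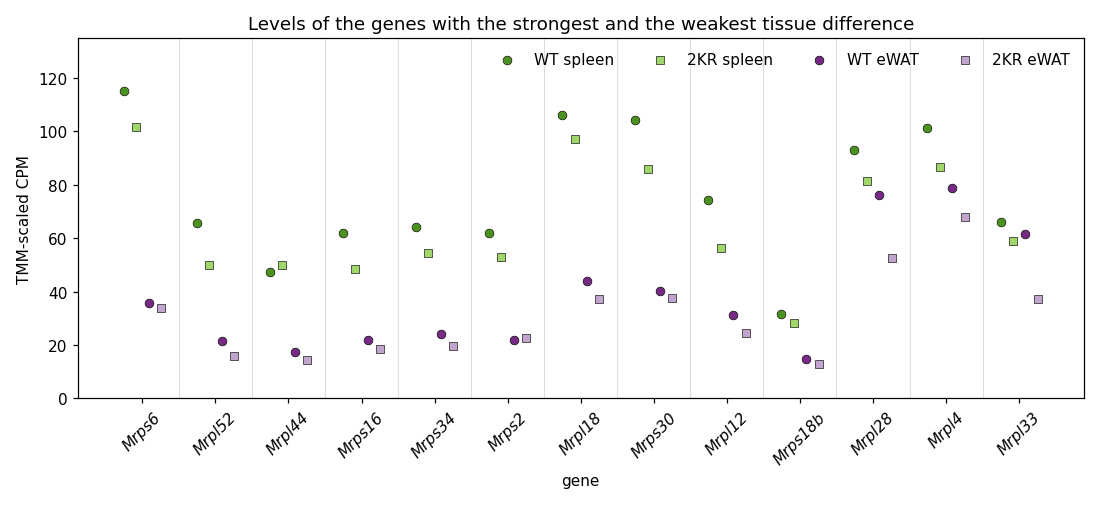
TMM-scaled CPM in each library for the 8 members with the strongest tissue difference, for Mrpl12 and Mrps18b, and for Mrpl28, Mrpl4 and Mrpl33, which are among those that did not pass the test. Green symbols are spleen and purple symbols eWAT, with circles for WT and squares for 2KR; the tissues are separate in all genes shown except Mrpl33, whose WT eWAT value of 61.5 lies above the 2KR spleen value of 58.8.

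The members that did not pass the test were of several kinds. Mrpl33 and Mrpl4, large subunit proteins shared with bacteria, were abundant and had the smallest differences. Mrpl33 stood at 66.0 CPM (WT) and 58.8 CPM (2KR) in spleen, against 61.5 (WT) and 37.2 (2KR) in eWAT (log2 fold change −0.34, SE 0.23, edgeR adjusted p = 0.224), and without WT eWAT its fold change was −0.84 with an edgeR adjusted p of 0.000358. Mrpl4 stood at 101 and 86.5 CPM in spleen and at 78.8 and 68.1 CPM in eWAT (log2 fold change −0.35, SE 0.19, edgeR adjusted p = 0.126). Mrpl28 had a value of −0.44, Mrps25 of −0.41 and Mrpl48 of −0.42 on the log2 scale, and none of the 3 overlapped between tissues. Mrps11, which shares its upstream region with Mrpl46, had a log2 fold change of −0.66 (SE 0.27) and an edgeR adjusted p of 0.0507. Its neighbour Mrpl46 was lower by −1.07 (SE 0.21, edgeR adjusted p = 0.00128). The difference between these neighbours was not tested.

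Mrpl23, Mrps36 and Mrps33 had far fewer counted reads than their FPKM would give. Mrpl23 had 29 and 18 reads in spleen, WT before 2KR, and 8 and 13 in eWAT, and Mrps36 had 40 and 26 reads in spleen and 12 and 20 in eWAT, which puts them nearest to the threshold of 5 reads. Their FPKM was nevertheless ordinary, at 97.2, 81.3, 45.7 and 40.0 for Mrpl23 and 66.2, 65.3, 40.1 and 40.2 for Mrps36. The ratio of reads to FPKM, with transcript length taken into account, was set relative to the median member. It was 0.04 for Mrpl23, 0.06 for Mrps36, 0.16 for Mrps33, 0.36 for Mrps21 and 0.47 for Mrps18b, and the cause was not tested. On the scale of log2(FPKM + 1), limma gave −1.04 (limma adjusted p = 0.00287) for Mrpl23 and −0.70 (limma adjusted p = 0.00673) for Mrps36. Without these 5 genes, 65 of 71 members were lower in edgeR, a count made after the data were seen.

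Many other genes of mitochondrial translation were lower too, beside 23.2% of all genes tested and 42.8% of those at 20 CPM or more. All 7 mitoribosomal proteins with other symbols were lower in eWAT, with a median log2 fold change of −0.98. Among them, Ict1, a peptidyl-tRNA hydrolase built into the large subunit, stood at 76.5 and 57.2 CPM in spleen, WT before 2KR, and at 26.0 and 21.9 CPM in eWAT (log2 fold change −1.48, SE 0.22), and Gadd45gip1, a large subunit protein, had −1.47. Of 14 translation factors tested 11 were lower (median −0.95), led by the elongation factor Tsfm at −1.20, the recycling factor Mrrf at −1.14, Taco1 at −1.13 and the release factor Mtrf1l at −1.10. Of 23 genes of ribosome assembly and ribosomal RNA modification 18 were lower and 1, the methyltransferase gene Trmt61b, was higher at 0.96 (median −0.81). The lowest were Mterfd2 at −2.05, Ngrn at −1.67, Ftsj2 at −1.60 and Mettl17 at −1.46. Of 14 genes of mitochondrial transcription and RNA processing 12 were lower (median −0.75), among them the polymerase Polrmt at −1.56, Mterf at −2.36, the DNA-packaging factor Tfam at −1.07 and Hsd17b10 at −1.02.

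The aminoacyl-tRNA synthetases, which charge mitochondrial tRNAs, were less uniform. Of 22 tested 11 were lower and 11 did not pass, with a median of −0.55. Among tested genes at 20 CPM or more, 42.8% were lower and the median was −0.41. The count of synthetases is near that share and is no result about them. The prolyl enzyme Pars2 had the largest difference of this list, with 16.7 and 20.7 CPM in spleen, WT before 2KR, against 1.85 and 3.13 CPM in eWAT (log2 fold change −2.91, SE 0.40, edgeR adjusted p = 7.52e-05). Ears2 had −1.51, Vars2 −1.40 and Yars2 −1.31. For comparison, 47 of 77 cytosolic ribosomal protein genes were lower and 30 did not pass (median −1.01), over a range from −1.50 to 0.91 that was wider than the range of the members from −1.63 to −0.34. Cytosolic ribosomal protein genes have many near-identical pseudogenes, which makes their counts uncertain. Of 75 nuclear-encoded subunits of oxidative phosphorylation 60 were lower and 15 did not pass (median −0.73). These are counts and medians, and whether the members differ from these lists was not tested.

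**Figure D4:**
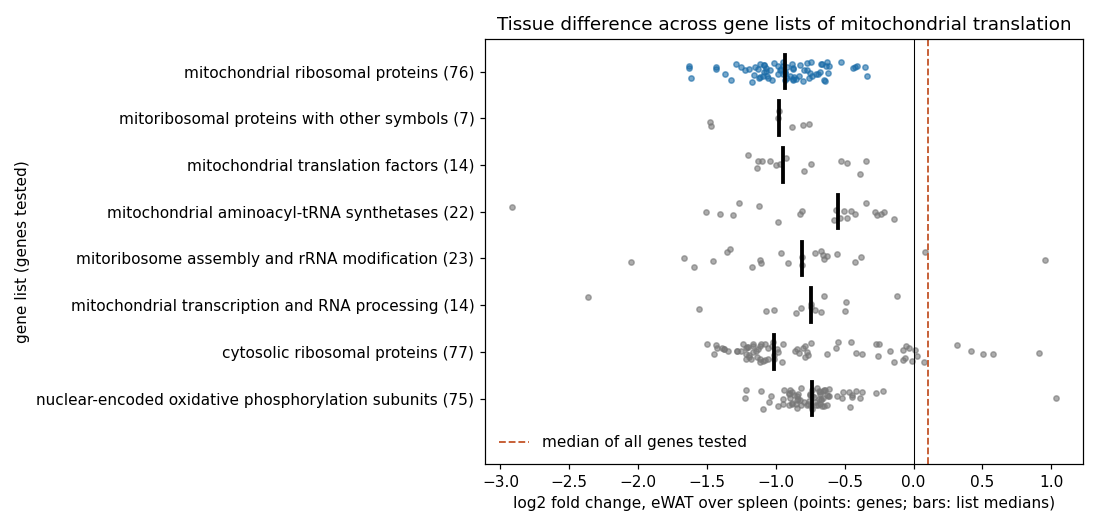
The edgeR log2 fold change of eWAT over spleen for the members, the other lists of mitochondrial translation and both comparison lists, with 1 point per gene and a black bar for each list's median. The dashed line is the median of all genes tested (0.11), the median of those at 20 CPM or more was −0.41, and every list median lies below both.

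Genes that share an upstream region with a member were also measured. Of 17 tested partners that are not members, 8 were lower in eWAT and the others did not pass, with a median log2 fold change of −0.61. Among all tested genes 23.2% were lower, and among those at 20 CPM or more 42.8%. The 17 partners are not a like set to the second share. Tmem63b, Eme1, Cyb5rl, Fau, Zfp189 and Zfp661 stood below 20 CPM in every library, and none of them passed. All 8 lower partners stood above 20 CPM in both spleen libraries, as did Klc4 and Hira, which did not pass. Mitd1 beside Mrpl30 had −1.25, Psma2 beside Mrpl32 −1.01, Ptcd2 beside Mrps27 −0.92 and Gga3 beside Mrps7 −0.88, each past the threshold in edgeR. Hira beside Mrpl40 had 0.03 (edgeR adjusted p = 0.916) and Zfp189 beside Mrpl50 had 0.03 (edgeR adjusted p = 0.954). In the last 2 pairs the member passed the test and the partner did not, and the difference between them was not tested.

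Genotype differences were smaller than tissue differences. The comparison of PPARg-2KR with WT, which kept tissue in the model and had 1 residual degree of freedom, called 0 of 76 members in edgeR, beside 0.0667% of all genes tested. At an unadjusted p under 0.05 there were 12 members, all lower in 2KR, beside 4.71% of all genes and 649 of 7689 at 20 CPM or more. In the comparison lists there were 21 of 75 oxidative phosphorylation subunits and 9 of 77 cytosolic ribosomal proteins. DESeq2 gave 0 members both adjusted and unadjusted. The smallest edgeR adjusted p of a member was 0.953, for Mrps24. The members' median was −0.26 with 72 of 76 below 0, and under total count scaling the median was −0.11 with 61 below 0 and 0 at an unadjusted p under 0.05.

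In fat, most members were somewhat lower in the 2KR library than in the WT library, by an amount that depended on scaling. The log2 ratio of 2KR over WT eWAT had a median of −0.29 over 74 members, against −0.07 over all genes at 5 CPM and −0.19 over tested genes at 20 CPM or more. Of the 74 members 67 were below 0, beside 6883 of 12364 genes at 5 CPM and 5359 of 7689 at 20 CPM or more, but under total count scaling the median was −0.040 with 44 members below 0. That scaling moved the median of all genes up by 0.25. A change of scaling moves all log2 ratios by nearly the same amount. The distance of the members from the median of all genes (−0.22) is therefore alike under every scaling, and this likeness is no check. Ratios of −0.5 or lower were seen in 12 members, beside 14.1% of genes, and a ratio of 0.5 or higher in 1, beside 17.5% of genes. A count of 12 of 74 is near the background and is no result about the members. With 1 library per group these values have no replicate check, and their 95% exact intervals cover counting error only.

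The lowest eWAT ratio was that of Mrpl33 (chromosome 5, 31916324 to 31925017 in mm9), with 61.5 CPM in WT and 37.2 in 2KR (log2 ratio −0.72, interval −0.91 to −0.54). Mrpl36 at −0.67, Mrps24 at −0.66, Mrpl2 at −0.65, Mrpl19 at −0.65 and Mrpl39 at −0.64 followed. Mrpl2 lies next to the catalytic centre of the large subunit, and Mrps24 belongs to the small subunit. The highest was Mrps22 (chromosome 9, 98489150 to 98502098 in mm9), a small subunit protein found only in mitochondria, with 155 reads (14.3 CPM) in the WT and 196 reads (20.4 CPM) in the 2KR library of fat (log2 ratio 0.51, interval 0.20 to 0.82). Its spleen ratio was −0.13, with an interval from −0.33 to 0.06. Mrpl32, a large subunit protein that a mitochondrial protease trims before assembly, had a ratio of 0.24 (0.05 to 0.44), and Mrps27 had 0.19 with an interval from −0.11 to 0.50. Mrps2, Mrpl16 and Mrpl45 had 0.06, 0.05 and 0.02. Intervals lay below 0 for 45 of the 74 members and above 0 for 2. The share of all genes with such intervals was not computed, so these counts are no result about the members.

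In spleen, too, most members were below 0, and whether the median was nearer to 0 than in eWAT depended on scaling. The log2 ratio of 2KR over WT spleen had a median of −0.20 over 74 members, against −0.07 over all genes at 5 CPM and −0.022 over tested genes at 20 CPM or more. Of the 74 members 71 were below 0, beside 7326 of 12364 genes at 5 CPM and 4156 of 7689 at 20 CPM or more. Under total count scaling the spleen median was −0.17, also with 71 members below 0, and lay farther from 0 than the eWAT median of −0.040, as it did on log2(FPKM + 1) with −0.17 against −0.079. Mrpl54 and Mrpl55 were the 2 members at −0.5 or lower, beside 14.0% of genes, and 0 members were at 0.5 or higher, beside 4.3% of genes. Mrpl54, a large subunit protein found only in mitochondria, stood at 61.3 CPM in WT and 40.4 in 2KR spleen (log2 ratio −0.60, interval −0.76 to −0.45), and Mrpl55 had −0.51 (−0.68 to −0.35). Mrpl16 at −0.47 and Mrpl17 at −0.46 followed. The members above 0 were Mrpl50 at 0.17, Mrpl44 at 0.08 and Mrpl22 at 0.04. Intervals lay below 0 for 53 members and above 0 for 1, Mrpl50, again without a share over all genes to set beside them.

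The genotype ratios of the members showed little shared order between tissues. The eWAT and spleen genotype ratios share no library, and their Spearman correlation over 74 members was 0.13, given as a description. With 1 library per group, this value cannot tell a different order from noise in small ratios. Mrpl16 had a genotype ratio of −0.47 in spleen and 0.05 in eWAT, whereas Mrpl33 had −0.17 in spleen and −0.72 in eWAT. Among the comparison lists, the oxidative phosphorylation subunits had median genotype ratios of −0.36 in eWAT and −0.34 in spleen, and the cytosolic ribosomal proteins −0.29 in both. The translation factors were divided, with 6 of 14 below 0 in eWAT and 9 of 14 in spleen. In eWAT the summed level of fibroblast and mesothelium markers was 468 CPM in WT and 199 in 2KR, and that of macrophage and monocyte markers 1334 and 1716 CPM, and their part in the genotype ratios was not tested.

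**Figure D5:**
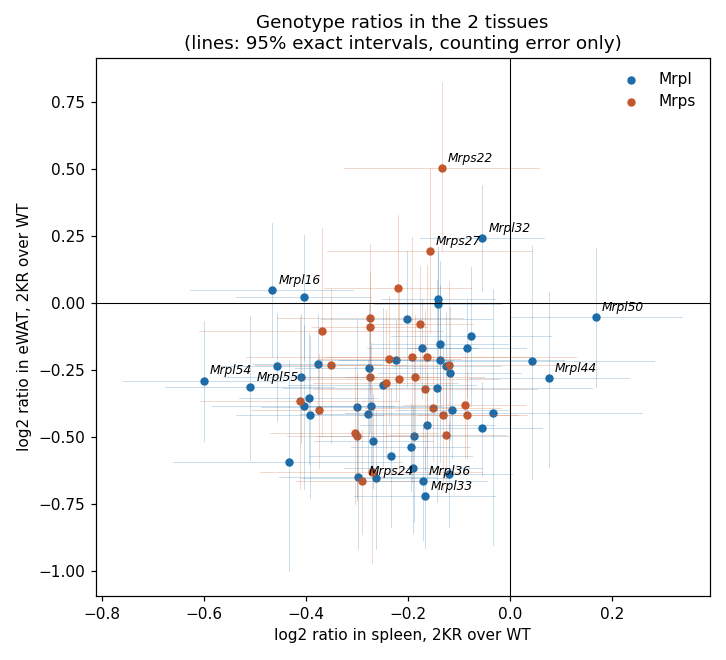
Log2 ratio of 2KR over WT in spleen (horizontal) and in eWAT (vertical) for the 74 members at 5 CPM, with Mrpl genes in blue and Mrps genes in orange. Thin lines are 95% exact intervals for counting error only; most points lie in the lower left, and Mrps22 at 0.51 in eWAT and Mrpl50 at 0.17 in spleen are the highest.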

How the data were processed

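RNA sequencing libraries of sorted Treg cells were used, 1 for each combination of tissue and genotype, grouped by the sample labels. The deposited read counts are whole numbers per gene symbol, without scaling. The deposited readme describes poly-A selected libraries read at 100 bases. The same readme gives bcl2fastq 1.8.4 for base conversion and TopHat 2.1.0 for alignment to mm9, with at most 4 mismatches and 10 hits per read. Cufflinks 2.0.2 was the authors' source of the FPKM values per gene. The deposited isoform table was used for the number of transcripts per gene and for the ratio of reads to FPKM. The submitters' processing notes also name DESeq and a second build, mm8. Which tool counted the reads, with which strand setting and which treatment of multiple hits, is not given in the sources here, so members with overlapping genes or pseudogenes are uncertain.

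Library totals in spleen were 13250590 (WT) and 15993889 reads (2KR), with TMM factors of 0.934 and 0.953, and in eWAT 11186660 (WT) and 8315569 reads (2KR), with factors of 0.968 and 1.16. R 4.3.3 with edgeR 4.0.16, DESeq2 1.42.0 and limma 3.58.1 was used, with Python 3.11.15, numpy 2.4.6, pandas 2.3.3, scipy 1.17.1 and matplotlib 3.10.9. The tissue effect was fitted for the 16488 genes that passed edgeR's expression filter (biological coefficient of variation 0.221, 2 residual degrees of freedom), and adjusted over all of them. The genotype model also held tissue (coefficient 0.234, 1 residual degree of freedom). Ratios within a tissue or genotype used CPM after TMM scaling and a prior count of 2 reads, for genes at 5 CPM or more in a library.

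The members, the gene lists and the rules were chosen with earlier results of these data known. Named by rule were Mrpl12, Mrps18b, the Mrps18 paralogs, Mrps30 and Mrps36; up to 8 members per direction for tissue; up to 6 per direction for genotype in eWAT and up to 4 in spleen, from members with 100 or more reads; the 6 highest and 4 lowest by FPKM; members nearest the read threshold; and up to 4 genes of each pathway list. Mrpl4, Mrpl28, Mrpl46, Mrpl48, Mrps11, Mrps33, Trmt61b and the upstream partners were named outside it, after their values were seen. Alternatives were other scalings, filters, tools, units, thresholds and leaving out each library. Both tests were tried on simulated counts of 16488 genes. The tissue test found 44 of 100 genes with a log2 change of 1 and 100 of 100 with a change of 2, and made 5 false calls. The genotype test found 29 and 100 of them and made 6 false calls. Only 100 genes were changed by each amount, whereas in the data 23.2% of tested genes were lower in eWAT and 33.7% higher. The simulated false calls therefore do not show how often the tissue test errs in the data.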

Additional observations from a re-analysis of the deposited data

How the results depend on the processing

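The tissue count and its direction held under every scaling, filter and tool run, with 62 to 69 members lower, and leaving out 1 library gave 40 to 72, where the lone library left in a tissue is assumed to vary like the others. The lowest count, 40, came without WT spleen; the cause was not tested. The median tissue fold change was −0.77 under total count scaling, −1.01 without the filter on low counts, −0.78 on log2(FPKM + 1), and −1.20 to −0.86 when 1 library was left out. Under total count scaling the median ratio was −0.85 in WT and −0.74 in 2KR, alternatives chosen after seeing the data, as was the count without the 5 members of few reads. Of 350 alternative values of the 35 named members, 325 kept their call, 21 lost it, 4 gained it and 0 reversed.

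For genotype in eWAT, the median was −0.040 under total count scaling, −0.26 with DESeq2 size factors and −0.079 on log2(FPKM + 1), and the count at −0.5 or lower was 0 under total count scaling, 0 on log2(FPKM + 1) and 0 at a ratio size of 1. The count at 0.5 or higher was 2 on log2(FPKM + 1), 0 at a ratio size of 1 and 3 with no read or CPM threshold, which adds Mrpl23 and Mrps36. In spleen the median was −0.17 under total count scaling, −0.16 with DESeq2 size factors, −0.22 for members with 100 reads in each library and −0.17 on log2(FPKM + 1). The spleen count at −0.5 or lower was 1 under total count scaling, 1 with DESeq2 size factors, 1 on log2(FPKM + 1), 0 at a ratio size of 1 and 4 with no read or CPM threshold, again with Mrpl23 and Mrps36 added. With genotype as a covariate, which pairs the eWAT and spleen library of each genotype, 69 members were lower, with a median of −0.93. No paired analysis was possible for genotype within a tissue because each group had 1 library. The depth limits Mrpl23 and Mrps36 most, with 8 to 40 reads.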
